A study of Mus musculus with 2 samples.

Results

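Immature neutrophils are marrow-stage granulocytes that carry transcripts of the secondary (specific) granules. Here they were the cell barcodes with S100a8 plus S100a9 at 20000 CPM or more, Camp plus Ngp plus Ltf at 3000 CPM or more, and C1qa plus C1qb plus C1qc under 1000 CPM. They were thus chosen by the measured levels of these genes. UMIs are unique molecular identifiers, 1 for each captured transcript, and CPM are the UMIs of a gene per 1000000 UMIs of that cell or group of cells. This rule chose 163 of 2985 kept cells, 72 of 1234 in the library labelled Cx3cr1 heterozygous and 91 of 1751 in the library labelled wild type. Levels of these 8 genes therefore describe the choice and are given without a test. Of the marker genes Camp, Ngp, Ltf, Lcn2 and S100a8, only Lcn2 was not used by the rule: it was at 13911 CPM (heterozygous) and 11240 CPM (wild type) in the immature neutrophils, against 56.8 and 63.9 CPM in the cells below the S100 minimum.

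The cells came from the central nervous system of transplanted mice, and the series compared the progeny of Cx3cr1 haplo-insufficient and wild-type haematopoietic stem and progenitor cells. Donor cells, GFP-positive and GFP-negative, were sorted from the lineage-negative fraction of Cx3cr1-/+ mice and given intravenously to CD45.1 recipients, at 1 donor per recipient. All recipients had been conditioned with busulfan, a drug that depletes the marrow, in 4 doses of 25 mg/kg, and recipient cells that survive it can remain in the tissue. There was 1 library per genotype: Cx3cr1-/+ and Cx3cr1+/+, both labelled replicate 1 and both labelled as microglia-like cells. The same protocol text, with Cx3cr1-/+ donors, stands for both libraries, so the donor of the wild-type library is not given in the sources used here, and neither are the animals' number, age or sex or the interval from transplantation. With 1 library per group there is no test across samples, and each difference compares 2 libraries. The intervals below are exact, at 95%, and cover counting error only.

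Neutrophils fill their granules in a fixed order as they mature in the marrow. Primary granule proteins such as Mpo, Elane and Prtn3 are made by dividing promyelocytes. Secondary granule proteins such as Ltf, Camp, Ngp and Lcn2 are made by myelocytes and metamyelocytes. Gelatinase granule proteins such as Mmp9 are made by later, non-dividing stages. Cebpe encodes a transcription factor required for the secondary granule programme. Mature neutrophils leave the marrow with receptors such as Cxcr2 and readily make Il1b and Cxcl2.

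The promoters of the 4 secondary granule genes are shown because these genes varied together from cell to cell. Camp encodes cathelicidin, an antimicrobial peptide, Ngp a cystatin-like granule protein, Ltf lactoferrin, which binds iron, and Lcn2 lipocalin 2, which binds bacterial iron carriers. Camp, Ngp and Ltf lie within 1195 kb of chromosome 9, and Lcn2 is on chromosome 2. Each sequence is the 250 bases upstream of the gene's start in RefSeq (GRCm38.p6), read 5′ to 3′ on the gene's strand, and 4 of 4 genes were matched by symbol. The GENCODE M21 models of these genes begin further upstream, so each window overlaps its gene's model. Capitals mark every match, on either strand, to TTNCNNAA, a loose form of the CCAAT/enhancer-binding (C/EBP) motif.
Camp, chr9:109849457-109849706, - strand: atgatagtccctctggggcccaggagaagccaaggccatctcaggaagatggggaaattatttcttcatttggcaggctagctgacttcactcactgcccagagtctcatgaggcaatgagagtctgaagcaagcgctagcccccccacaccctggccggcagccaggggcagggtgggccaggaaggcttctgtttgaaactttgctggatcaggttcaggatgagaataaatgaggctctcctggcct
Ngp, chr9:110419558-110419807, + strand: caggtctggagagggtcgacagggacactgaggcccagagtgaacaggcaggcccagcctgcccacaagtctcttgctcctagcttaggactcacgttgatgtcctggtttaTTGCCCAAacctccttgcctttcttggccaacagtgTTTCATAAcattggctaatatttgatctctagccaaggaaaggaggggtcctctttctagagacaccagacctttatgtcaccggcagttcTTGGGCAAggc
Ltf, chr9:111019042-111019291, + strand: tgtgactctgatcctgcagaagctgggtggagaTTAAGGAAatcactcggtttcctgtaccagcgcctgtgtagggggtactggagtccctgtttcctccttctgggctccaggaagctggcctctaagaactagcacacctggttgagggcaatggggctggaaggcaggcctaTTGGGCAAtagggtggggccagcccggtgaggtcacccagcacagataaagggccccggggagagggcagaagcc
Lcn2, chr2:32387740-32387989, - strand: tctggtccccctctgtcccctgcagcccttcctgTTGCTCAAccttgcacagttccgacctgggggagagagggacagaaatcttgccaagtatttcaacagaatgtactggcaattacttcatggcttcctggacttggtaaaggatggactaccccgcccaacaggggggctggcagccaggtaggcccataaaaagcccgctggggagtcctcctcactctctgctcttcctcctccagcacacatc

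The loose motif occurred 3 times in the Ngp window, at -138, -102 and -11 from the start, counting the first base of each match, 2 times in that of Ltf (-217 and -75) and 1 time in that of Lcn2 (-216). No match lay in the Camp window, which says only that these letters are absent from it. The stricter form TTGCNNAA, every match of which is also a match to the loose form, occurred 2 times in the Ngp window and 1 time each in those of Ltf and Lcn2. Of 32851 promoters cut to the same length, 3142 (9.56%) held the stricter and 12104 (36.8%) the loose form. These matches are a description of letters and not of bound sites.

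Total depth was 17828344 UMIs over 1837 barcodes (heterozygous) and 22062823 UMIs over 2359 barcodes (wild type). Of these, 339 barcodes were listed in both libraries and were left out, and with them 5 heterozygous and 3 wild-type cells that met the expression rule. Keeping them moved the share of immature neutrophils to 5.17% and 4.82%. The libraries differed in sex marks: among the immature neutrophils, 52 heterozygous cells had Xist UMIs only, 1 had Y-linked UMIs only and none had both, whereas in the wild-type library 2 had Xist only, 60 had Y-linked only and 3 had both. Genotype, sex and library therefore cannot be told apart. Among wild-type cells without S100 transcripts at the minimum, 20.8% of those with 1 kind of mark had Xist. Defining markers of resident microglia were low in the immature neutrophils: P2ry12 was at 19.7 and 13.9 CPM and Tmem119 at 4.77 and 6.67 CPM, against 236 and 256 CPM and 234 and 203 CPM in cells below the S100 minimum.

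Immature neutrophils were a similar part of each library. They made up 5.83% (Clopper-Pearson interval 4.59 to 7.29) of the heterozygous and 5.20% (4.20 to 6.34) of the wild-type kept cells, and the sort can set these shares. The other S100-high, C1q-low cells had Camp plus Ngp plus Ltf under 3000 CPM and are called granule-low neutrophils, 49 heterozygous and 93 wild-type cells. Immature neutrophils were 59.5% (50.2 to 68.3) and 49.5% (42.0 to 56.9) of the C1q-low neutrophils. Another 167 and 248 S100-high barcodes carried C1q, a complement component of microglia and macrophages, at 1000 CPM or more. Of these, 84 and 89 had granule transcripts at 3000 CPM or more. Requiring C1q under 300 CPM lowered the shares of immature neutrophils to 3.97% and 3.71%. The granule-low neutrophils and barcodes with C1q were not removed or called as doublets, and no doublet caller was run.

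Few cells lay near the threshold of the granule sum, but some wild-type cells lay close to it on both sides. The heterozygous cells nearest to it were at 2325 CPM outside and 3071 CPM inside, and the wild-type cells at 2915 and 3002 CPM. The 3 nearest wild-type cells on each side ran from 2852 to 2915 CPM and from 3002 to 3047 CPM. Between 2000 and 5000 CPM lay 5 heterozygous and 12 wild-type cells. The highest C1q sums inside were 960 and 928 CPM and the lowest outside 1016 and 1176 CPM. The lowest S100a8 plus S100a9 inside was 100401 CPM (heterozygous) and 24953 CPM (wild type) against a minimum of 20000 CPM.

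**Figure D1:**
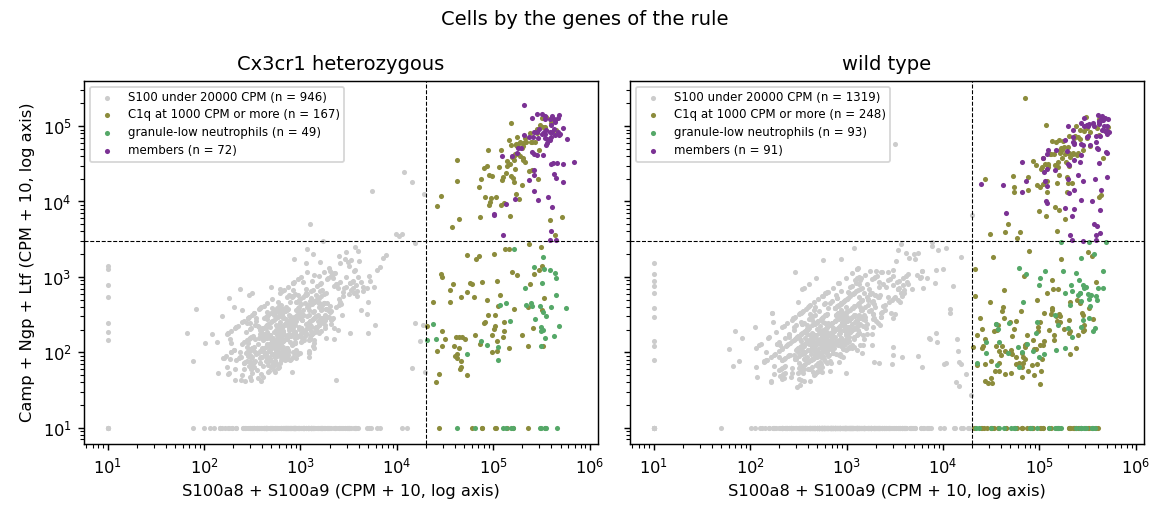
Kept cells of each library by S100a8 plus S100a9 (horizontal) and Camp plus Ngp plus Ltf (vertical), both in CPM plus 10 on log axes, each point 1 cell, dashed lines at 20000 and 3000 CPM. The 72 and 91 immature neutrophils, called members in the key, sit in the upper right, above the 49 and 93 granule-low neutrophils.

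The immature neutrophils were deeply sampled and dominated by the genes that chose them. They had a median of 18436 UMIs per cell (lowest 1066, highest 55298) in the heterozygous and 16250 (1721 to 70885) in the wild-type library, against medians of 5333 and 5402 in granule-low neutrophils. S100a8, S100a9, Camp, Ngp and Ltf together took 38.0% and 32.1% of their UMIs. S100a8 and S100a9, the paired calgranulins of the neutrophil cytoplasm, were at 158086 and 152259 CPM in heterozygous and at 134545 and 131345 CPM in wild-type cells. Camp was at 27987 and 22233 CPM, Ngp at 33889 and 26749 CPM and Ltf at 7384 and 5906 CPM. Because these genes hold so large a share, the CPM of every other gene is lowered by their level, and 3 other scalings are given beside the counts below.

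Single cells spanned a wide range of granule transcripts. Camp per cell ran from 87.7 CPM through a median of 21998 to 71535 in the heterozygous library and from 76.2 through 15574 to 67548 in the wild-type library. Ngp ran from 2743 through 31863 to 107173 CPM and from 2300 through 23800 to 76034 CPM. Ltf was at 0 in 2 heterozygous and 6 wild-type cells, with medians of 6802 and 5430 CPM. No cell lacked Camp, Ngp or Lcn2, and Lcn2 had medians of 10657 and 10882 CPM.

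Genes of the secondary granule programme varied together across these cells. Over the 72 heterozygous and 91 wild-type cells, the Spearman correlation of Camp was 0.83 and 0.89 with Ngp, 0.62 and 0.78 with Ltf, 0.66 and 0.57 with Lcn2 and 0.82 and 0.85 with Chil3, a chitinase-like protein of myeloid cells. With Cebpe the correlation was 0.69 and 0.67, and with Fcnb, which encodes ficolin B, a lectin of myeloid precursors, 0.66 and 0.63. Mmp8 and Retnlg, both on the gelatinase granule list used here, ran the other way. The correlation of Camp was -0.65 and -0.64 with Mmp8, the neutrophil collagenase, and -0.63 and -0.64 with Retnlg, a resistin-like secreted protein. Mmp8 and Retnlg had a correlation of 0.87 and 0.84 with each other. Several of these genes also moved with depth. The correlation with UMIs per cell was 0.41 and 0.22 for Camp, 0.49 and 0.29 for Cebpe and 0.58 and 0.41 for Fcnb. It was -0.57 and -0.25 for Mmp8 and -0.58 and -0.34 for Retnlg, but only 0.21 and 0.11 for Ngp. The part of depth was not tested. The cells of a library share their preparation, their CPM are parts of 1 sum, and Camp, Ngp and Ltf chose them, so these values are descriptions over cells and not over animals.

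Compared with granule-low neutrophils, the immature neutrophils carried far more secondary granule transcript and less of the genes of mature, inflammatory neutrophils. Of 3189 genes with at least 50 UMIs in each library, 91 (2.85%) were at least 2-fold higher and 166 (5.21%) at least 2-fold lower in both libraries. The split depended on scaling: with trimmed-mean (TMM) factors 153 were higher and 47 lower, with median-of-ratios factors 145 and 54, and with totals that left out the 5 abundant rule genes 151 and 53. The median log2 ratio over all genes was -0.27 in the heterozygous and -0.33 in the wild-type library, and TMM added 0.37 to every log2 ratio in both. The rule split the cells on Camp, Ngp and Ltf, so this contrast describes what goes with the split, and the 2 libraries are not replicates of 1 genotype.

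Of 15 secondary granule genes, 9 were at least 2-fold higher in both libraries and none lower, and 3 of the 9 (Camp, Ngp and Ltf) were fixed by the rule. Of the 12 others, 6 were higher and none lower under each of the 4 scalings, with medians of 1.49 and 1.24 on the log2 scale. Without the dividing cells described below, 5 of 11 were higher, with medians of 1.10 and 0.68. Camp was at 52.8 and 69.6 CPM in heterozygous and wild-type granule-low neutrophils, Ngp at 314 and 320 CPM and Ltf at 32.7 and 13.2 CPM, all under the levels above as the rule requires. Lcn2 stood at 13911 and 11240 CPM in the immature and 2568 and 2202 CPM in the granule-low neutrophils. The log2 ratio was 2.44 (2.35 to 2.53) and 2.35 (2.28 to 2.42). Lcn2, which the rule did not use, was thus still abundant in cells that the rule chose as low in Camp, Ngp and Ltf. Chil3 was at 2829 and 2104 CPM against 83.0 and 353 CPM. Anxa1, which encodes the lipid-binding protein annexin A1, was at 4244 and 3109 CPM against 1091 and 848 CPM. Cd177, a surface protein of neutrophils, was at 591 and 482 CPM against 158 and 83.9 CPM. Orm1, which encodes the acute-phase protein orosomucoid, was at 98.1 and 102 CPM, and was at least 13-fold higher than in heterozygous granule-low neutrophils, where it had 0 UMIs and the floor was 3 counts over the group. The other 6 genes of the list, Lyz2, Cybb, Cyba, Itgam, Dhrs7 and Ltb4r1, were not 2-fold apart in both libraries.

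Of 12 neutrophil transcription factors tested, 1 (Cebpe) was at least 2-fold higher and 2 (Junb and Rara) at least 2-fold lower in both libraries. Cebpe, the C/EBP epsilon gene on chromosome 14, was at 181 and 128 CPM in immature and 2.51 and 9.59 CPM in granule-low neutrophils. Its log2 ratio was 6.17 (3.68 to 11.48) in the heterozygous library, where granule-low neutrophils held 1 UMI, and 3.74 (2.74 to 4.97) in the wild-type library. Junb, an immediate early factor, was at 1382 and 1355 CPM against 3149 and 3002 CPM, and Rara, the retinoic acid receptor alpha gene, at 58.6 and 75 CPM against 151 and 182 CPM. Under each other scaling none of the 12 was 2-fold lower in both. Cebpb, whose product takes over granulopoiesis in emergency, was at 2058 and 2326 CPM against 4607 and 4558 CPM. Outside that list, Fcnb was at 230 and 192 CPM against 7.54 and 7.19 CPM. Serpinb1a, an inhibitor of neutrophil serine proteases, was at 642 and 514 CPM against 25.2 and 15.6 CPM.

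Of 12 genes of the primary granule list 5 had enough UMIs, with medians of 2.17 and 2.06. Of these, 3 (Serpinb1a, Prtn3 and Ms4a3) were at least 2-fold higher in both libraries. Among those higher, only Prtn3 encodes a granule protease, while Serpinb1a encodes a protease inhibitor and Ms4a3 a membrane protein. Without the dividing cells 1 of 3 tested was higher, and the medians were -0.13 and 0.23. Transcripts of Mpo, Elane and Prtn3 were scarce. Mpo, the myeloperoxidase of promyelocytes, had 0.681 and 8.89 CPM. Elane, neutrophil elastase, was at 27.2 and 85.6 CPM and Prtn3, proteinase 3, at 68.1 and 170 CPM. Few cells held them: of the UMIs of Elane, Prtn3 and Mpo together, the top 3 cells held 77.3% in the heterozygous and 86.5% in the wild-type library. Without dividing cells Prtn3 was lower than in wild-type granule-low neutrophils, at a log2 ratio of -2.19.

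Late neutrophil genes were lower as a group. Of 23 tested, 18 were at least 2-fold lower in both libraries and none higher, with medians of -1.72 and -1.38, and 12 or 13 were under the other scalings. Il1b, which encodes interleukin 1 beta, was at 451 and 569 CPM in immature and 4522 and 3824 CPM in granule-low neutrophils. Wfdc17, a secreted protein of the whey acidic family, was at 552 and 716 CPM against 6136 and 4721 CPM. Ifitm1, an interferon-inducible membrane protein, was at 274 and 379 CPM against 3154 and 2489 CPM. These 3 had log2 ratios between -3.53 and -2.72. The G-CSF receptor gene Csf3r was at 87.8 and 87.3 CPM against 460 and 401 CPM, and the chemokine receptor gene Cxcr2 at 150 and 145 CPM against 453 and 380 CPM. Cxcl3, a ligand of that receptor, had 3 and 13 UMIs in all immature cells, 2.04 and 7.23 CPM, against 186 and 127 CPM. Its log2 ratio was -6.51 (-8.82 to -4.91) and -4.14 (-5.09 to -3.30). Hcar2, H2-Q10, Jaml, Acod1, Stfa2l1, Ccl6, Clec4d and Ptgs2 completed the 12 genes with the lowest ratios.

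Other functions divided along similar lines or stayed within 2-fold. Of 18 chemotactic and adhesion genes, 1 (Cd177) was at least 2-fold higher and 6 were lower, and 3 or 4 were lower under other scalings. Of 18 inflammation and immediate early genes 8 were lower and none higher, and 4 were lower under each other scaling. Of 7 tested subunits and regulators of the NADPH oxidase, which makes superoxide in the phagosome, none differed by 2-fold in both libraries, with medians of 0.26 and 0.21. Gelatinase granule genes showed no common direction: 1 of 8 was higher (Mmp25, a membrane-bound metalloprotease, at 77.6 and 66.1 CPM against 30.2 and 20.4 CPM), and the wild-type median was -0.19 but 0.18 with TMM. Interferon response genes had 2 of 7 lower under all 4 scalings and growth factor receptors 1 of 7. Monocyte genes had 2 of 12 lower, but none under each other scaling and 1 higher with TMM. Protease inhibitors had 1 of 9 higher and 2 lower, and 2 each way under each other scaling. Iron handling genes had 2 of 10 each way, and 2 higher and none lower under each other scaling. S100 genes had none of 8, and 2 higher under each other scaling. Ribosomal protein genes, none of 18 beyond 2-fold, had medians of -0.16 and -0.24, which became 0.22 and 0.13 with TMM.

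Across all C1q-low neutrophils binned by Camp plus Ngp plus Ltf, the stage genes changed at different points. In bins of under 300, 300 to 3000, 3000 to 60000 and 60000 CPM or more there were 30, 19, 34 and 38 heterozygous and 57, 36, 54 and 37 wild-type cells, and the bin of 19 cells is thin. Median UMIs per cell ran from 4863 to 20942 and from 4173 to 16811 over the bins, so depth moves with them, and its part was not tested. Fcnb was at 10.6, 0, 41.3 and 372 CPM in the heterozygous bins and 8.44, 4.14, 50.1 and 425 CPM in the wild-type bins. Cebpe followed the same course, at 0, 8.73, 63.6 and 269 CPM and 10.1, 8.29, 60.8 and 240 CPM. Both were thus mostly in the cells with the most granule transcript.

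Lcn2 reached further along. It was at 1922, 4164, 8784 and 17752 CPM over the heterozygous bins and at 1502, 3920, 7151 and 17961 CPM over the wild-type bins. Mmp8 was highest in the middle bins, at 745, 1432, 1324 and 534 CPM and 413, 1450, 971 and 541 CPM. Retnlg was highest just under the rule's threshold, at 12622, 31983, 9365 and 5017 CPM and 8125, 25228, 11329 and 4666 CPM. Mmp8 and Retnlg were thus lower in the most granule-rich cells than in the bins next to the threshold. Il1b ran the other way, at 4628, 4260, 809 and 183 CPM and 4193, 2917, 829 and 141 CPM. Cebpb, at 4797, 4138, 3013 and 1344 CPM and 4678, 4264, 2827 and 1502 CPM, was lower in CPM in each more granule-rich bin. The rule genes took a changing share of each bin: S100a8 alone was at 75801, 150323, 126363 and 181853 CPM and 47158, 103900, 105249 and 182710 CPM. No other scaling was applied to the bins. Small steps, such as those of Cebpb and heterozygous Il1b between the lowest bins, may therefore depend on the scaling.

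**Figure D2:**
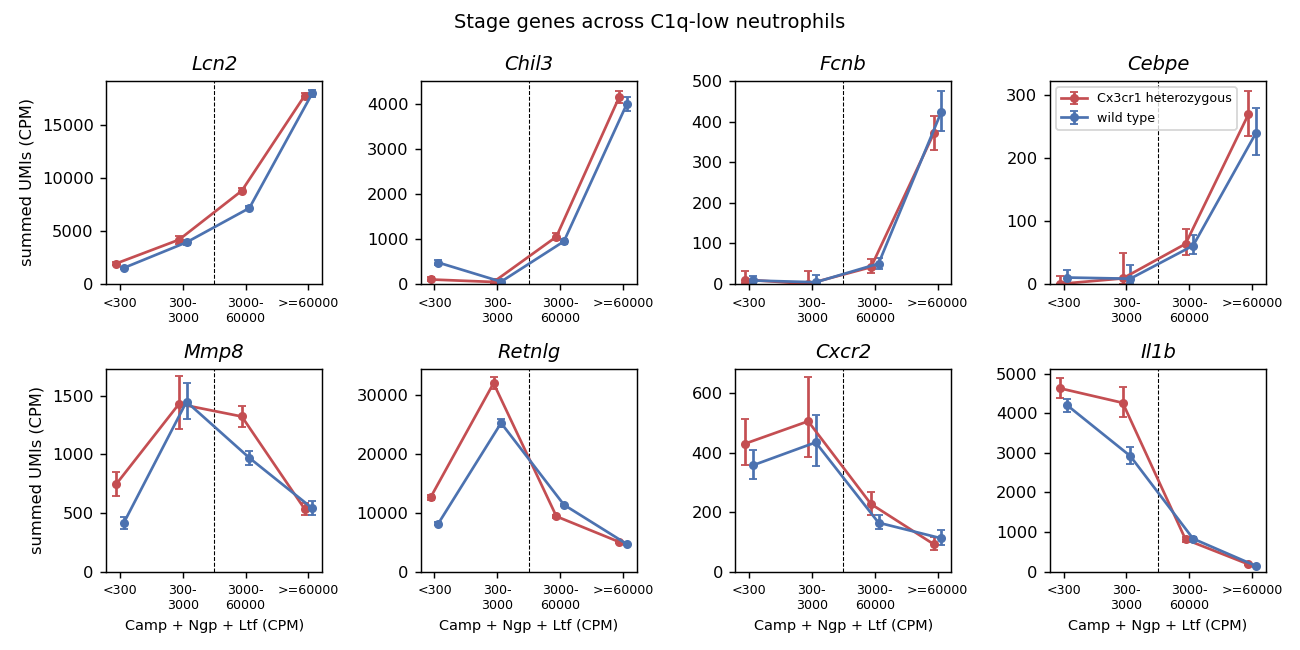
CPM of 8 stage genes (vertical, linear, from 0) in C1q-low neutrophils binned by Camp plus Ngp plus Ltf in CPM (horizontal), by library, with 95% Poisson intervals, the dashed line at the rule's 3000 CPM. Lcn2, Chil3, Fcnb and Cebpe were highest at 60000 CPM or more (Lcn2 17752 and 17961 CPM), Retnlg in the bin of 300 to 3000 CPM, and Il1b was highest below 300 CPM.

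Detection in single cells at equal depth was compared next. Each cell was thinned to 2000 UMIs, which left out 4 heterozygous and 1 wild-type immature neutrophil. The background was 32 heterozygous and 60 wild-type cells with at least 3 genes of the B cell or of the NK and T cell list, S100 below the minimum and C1q under 1000 CPM, a definition chosen after the data were seen. Their median depths were 7484 and 4856 UMIs, and 30 and 56 remained after thinning. The barcodes planned as background, with any UMI of Cd79a, Cd79b or Ncr1, were not used, because 77 of 149 and 88 of 191 of them held Cx3cr1 after thinning, close to all cells below the S100 minimum. Cebpe had a UMI in 17 of 68 heterozygous and 19 of 90 wild-type immature neutrophils. It was in 0 of 48 and 0 of 84 granule-low neutrophils, with exact upper limits of 7.40% and 4.30%. Of background cells, 0 of 30 and 0 of 56 held it. Without thinning it was in 48 of 72 and 52 of 91 immature neutrophils, 1 of 49 and 7 of 93 granule-low neutrophils and 0 of 32 and 1 of 60 background cells.

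Fcnb was detected in 14 of 68 and 10 of 90 thinned immature neutrophils, against 0 of 30 and 0 of 56 background cells, and in 30 of 72 and 32 of 91 without thinning. Serpinb1a was in 42 of 68 and 41 of 90, against 4 of 30 and 1 of 56, and in 63 of 72 and 78 of 91 without thinning. The 4 heterozygous background cells with Serpinb1a were all among 7 B cells. Lcn2 was in every thinned immature neutrophil, in 40 of 48 and 69 of 84 granule-low neutrophils and in 2 of 30 and 6 of 56 background cells. Without thinning it was in 46 of 49 and 84 of 93 granule-low neutrophils and 6 of 32 and 8 of 60 background cells. Prtn3, in 2 of 68 and 7 of 90 immature neutrophils, was within the intervals of its background share of 1 of 30 and 1 of 56. Mpo was in none of the 68 and 90, with exact upper limits of 5.28% and 4.02%, and in 0 of 30 and 1 of 56 background cells. Cxcr2 was in 21 of 68 and 22 of 90 immature and 30 of 48 and 50 of 84 granule-low neutrophils, against 1 of 30 and 0 of 56 background cells, and without thinning in 53 of 72 and 68 of 91 and in 42 of 49 and 82 of 93.

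Some immature neutrophils carried transcripts of dividing cells. The 25 genes of a cell division list summed to a median of 1935 and 1659 CPM per cell, with highest values of 17824 and 17079 CPM. A cut at 5000 CPM, chosen after these values were seen, marked 13 of 72 heterozygous (18.1%, interval 9.98 to 28.9) and 14 of 91 wild-type cells (15.4%, 8.67 to 24.5). The class is a range and not a type: 2 cells in each library lay between 4000 and 6000 CPM. In granule-low neutrophils the cut marked 1 of 49 and 3 of 93 cells. The marked cells held 64.4% and 67.3% of the list's UMIs. Mki67, a gene of cycling cells, had a UMI in 11 of 13 and 12 of 14 of them and in 3 and 6 of the other cells. Their median depth was 32636 and 29015 UMIs, against 16515 and 14354 in the others, and unthinned detection moves with depth.

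Dividing cells were richer in granule transcripts at the median and poorer in gelatinase genes. Their median Camp plus Ngp plus Ltf was 94755 and 85502 CPM, against 50677 and 40814 CPM in the other immature neutrophils. The ranges overlapped: dividing cells ran from 6567 to 136268 CPM and from 30491 to 128219 CPM. The highest sums, 188490 and 141305 CPM, were in other cells. Of 2536 genes with at least 50 UMIs in each library, 99 (3.9%) were at least 2-fold higher and 102 (4.02%) at least 2-fold lower in dividing cells of both libraries, with median log2 ratios over all genes of -0.19 and -0.04. Of 14 division genes tested 13 were higher, which the cut itself fixed.

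All 8 genes tested of the gelatinase granule list were at least 2-fold lower in dividing cells of both libraries. Mmp8 was at 2.71 CPM (1 UMI) in dividing and 1164 CPM in other heterozygous cells, and at 110 and 1046 CPM in the wild-type library, log2 ratios of -8.75 (-14.05 to -6.27) and -3.25 (-3.69 to -2.85). Mmp9, gelatinase B, was at 27.1 and 745 CPM and at 81.1 and 710 CPM. Retnlg was at 350 and 9071 CPM and at 2341 and 11007 CPM. These genes differed more in the heterozygous library, a difference that was not tested. Ly6g, the surface antigen used to mark mouse neutrophils, and Thbs1, thrombospondin 1, were chosen after their values were seen. Ly6g was at 122 and 480 CPM and at 50.4 and 459 CPM, and Thbs1 at 5.42 and 200 CPM and at 15.3 and 156 CPM.

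Of 5 genes of the primary granule list tested, 2 (Prtn3 and Ms4a3) were at least 2-fold higher in dividing cells of both libraries and none lower. Fcnb was at 637 CPM in dividing and 93.7 CPM in other heterozygous cells, and at 572 and 62.6 CPM in the wild-type library. Ms4a3, a membrane protein of granulocyte and monocyte progenitors, was at 168 and 30.9 CPM and at 156 and 16.4 CPM. Prtn3 was at 225 and 15.5 CPM and at 642 and 8.94 CPM. It rests on few cells, since the top 3 immature neutrophils held 77.3% and 86.5% of the Elane, Prtn3 and Mpo UMIs. A single cell also held much of wild-type Fcnb, as given at the end. Cebpe was at 387 and 112 CPM and at 224 and 96.1 CPM. Secondary granule genes differed less: of 15 tested, 2 were at least 2-fold higher and none lower in both libraries. Camp was at 44329 and 22501 CPM and at 33541 and 18391 CPM, whereas Ltf was at 7459 and 7358 CPM and at 4894 and 6250 CPM. Of 23 late neutrophil genes 7 were lower and none higher.

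**Figure D3:**
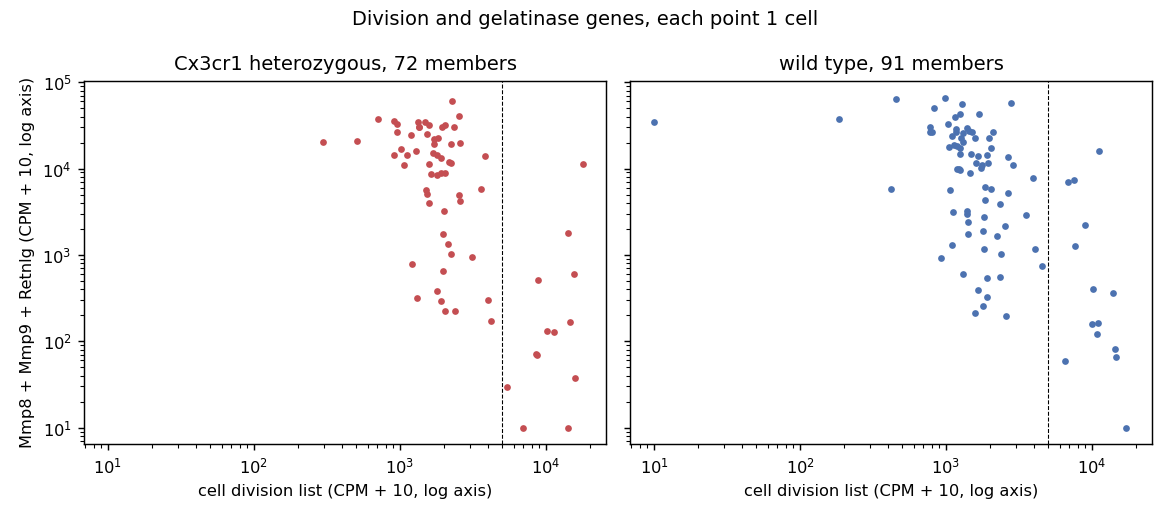
Each immature neutrophil by the cell division list (horizontal) and by Mmp8 plus Mmp9 plus Retnlg (vertical), both in CPM plus 10 on log axes, heterozygous left and wild type right, with the dashed line at 5000 CPM. The 13 and 14 cells right of the line are mostly low in gelatinase genes, while the other cells spread from low to high.

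Between genotypes, the immature neutrophils of the heterozygous library, summed over cells, had slightly more Lcn2, Chil3 and Anxa1 per UMI. The MHC class II, interferon response and monocyte lists had medians below that of all genes, less so without the dividing cells. A single cell of each library held most UMIs of the class II genes H2-Aa, H2-Ab1 and H2-Eb1. Of 4738 genes that reached 50 UMIs when both libraries were summed, 96 (2.03%) were at least 1.5-fold higher and 497 (10.5%) at least 1.5-fold lower in the heterozygous library. In 63 and 357 of them the counting interval also excluded equality. The split depended on scaling, since the median log2 ratio over all genes was -0.16: TMM gave 223 higher and 253 lower, median-of-ratios 226 and 247, and totals without the rule genes 193 and 282. Without the dividing cells 101 were higher and 308 lower.

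The 12 secondary granule genes that the rule did not use had a median log2 ratio of 0.25, against -0.16 over all genes. None was at least 1.5-fold higher and 1, Olfm4 (olfactomedin 4), was lower, while with TMM or median-of-ratios factors 2 were higher and 1 lower. The log2 ratio was 0.31 (0.28 to 0.34) for Lcn2, 0.43 for Chil3 and 0.45 for Anxa1. Lcn2 ranged from 0.15 to 0.47 under the other settings. As a description of the chosen cells, the ratio was 0.33 for Camp, 0.34 for Ngp and 0.32 for Ltf, and that of Camp ranged from 0.14 to 0.50, the lowest with C1q under 300 CPM. Camp plus Ngp plus Ltf reached 60000 CPM in 38 of 72 heterozygous and 37 of 91 wild-type cells. In these cells Lcn2 was at 17752 and 17961 CPM, Chil3 at 4161 and 4003 CPM and Anxa1 at 5291 and 5040 CPM. In the other immature neutrophils they were at 8784 and 7151 CPM, 1051 and 948 CPM, and 2846 and 1935 CPM. Median Lcn2 per cell was 10657 and 10882 CPM. How far this make-up set the ratios was not tested. Olfm4 was at 88.5 and 152 CPM. Gelatinase granule genes had a median of 0.02 and none passed 1.5-fold. Late neutrophil genes had a median of -0.14, near that of all genes, with 1 of 24 higher and 1 lower. Retnlg was at 6879 and 8809 CPM, and its log2 ratio of -0.36 became 0.09 with C1q under 300 CPM.

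Cx3cr1, the gene that defines the groups, was low in these cells. It was at 73.5 CPM in heterozygous and 138 CPM in wild-type immature neutrophils. The log2 ratio was -0.91 (-1.25 to -0.58), with values from -1.58 to -0.75 under the other settings. In the cells below the S100 minimum it was at 653 and 692 CPM. After thinning it was found in 6 of 68 and 15 of 90 immature neutrophils, against 406 of 852 and 592 of 1148 cells below the S100 minimum, and unthinned in 24 of 72 and 47 of 91, against 641 of 946 and 955 of 1319. NK cells carry the gene, so B cells alone were taken as background, and 0 of 7 and 0 of 8 held it after thinning and 0 of 8 and 1 of 8 without. So few cells allow background shares of up to 41.0% and 36.9% after thinning, the exact upper limits. Whether 3′ reads of the changed allele are counted as Cx3cr1 is not given in the sources used here, so the gene is no check of the labels.

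The genes furthest apart between libraries often rested on few cells. Prss34 and Mcpt8, proteases of basophils and mast cells, had 208 and 90 UMIs in the heterozygous and 1 UMI each in the wild-type library, and 1 heterozygous cell held 98.1% and 98.9% of them. Sparc, a matrix protein also made by microglia, was at 43.6 and 12.8 CPM, with log2 ratio 1.77 (1.06 to 2.52), and no cell held over 17.4% of its UMIs. The remaining genes of the 10 highest ratios were Abt1, Chka, H1f0, Mrgpra2a, Tnnt1, Copg2 and Slc17a9. Their log2 ratios ran from 1.00 to 1.29.

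At the other end, 3 genes of MHC class II led. H2-Ab1 was at 35.4 and 157 CPM, H2-Eb1 at 40.2 and 170 CPM and H2-Aa at 79.0 and 212 CPM in the heterozygous and wild-type library. All 4 class II and dendritic genes tested were at least 1.5-fold lower, with a median of -1.75, under each of the 4 scalings. A single cell held 57.3% of the UMIs of these 3 genes in the heterozygous library and 61.1% in the wild-type library, and 23 and 47 cells had any. Without the dividing cells 1 of the 4 was lower, and the median was -0.39. Elane, at 27.2 and 85.6 CPM, and Prtn3 were also among the lower genes, with log2 ratios of -1.65 (-2.19 to -1.14) and -1.32 (-1.66 to -0.99), but without the dividing cells the ratios were 0.29 and 0.79.

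Among the other low genes, Prok2 did not depend on its top cells. Prok2, prokineticin 2, a secreted peptide of neutrophils, was at 32.7 and 102 CPM, with log2 ratio -1.64 (-2.13 to -1.17), and -1.82 without the top cell of each library. Sdf2l1, Sept11, Creb1, AY036118 and Mmadhc had ratios from -1.47 to -1.39. Cell division genes had a median of -0.38 over 22 genes. Of these, 8 were lower and none higher, and 5 lower and 0 or 1 higher under other scalings. The sum of the list was not lower, at 4177 and 4124 CPM, and its median per cell was 1935 and 1659 CPM. The 13 and 14 dividing cells held 64.4% and 67.3% of its UMIs. Without the dividing cells 6 genes were tested, with 1 higher, none lower and a median of -0.09. Ube2c, a ubiquitin-conjugating enzyme of mitosis, was at 94.7 and 169 CPM and Top2a, topoisomerase II alpha, at 80.4 and 125 CPM. With each cell weighted equally the log2 ratio of Top2a turned from -0.63 to 0.29. Interferon response genes had a median of -0.74 over 7 genes, 4 of them lower, among them Ifi27l2a at 240 and 495 CPM, and 3 or 4 lower under other scalings. Without the dividing cells 2 of 6 were lower, with a median of -0.38. Monocyte genes had a median of -0.45 over 13 genes, with 3 lower under all 4 scalings, and without the dividing cells 2 of 12 were lower, with a median of -0.32. Ribosomal protein genes were within 1.5-fold in 18 of 18, with a median of -0.31.

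**Figure D4:**
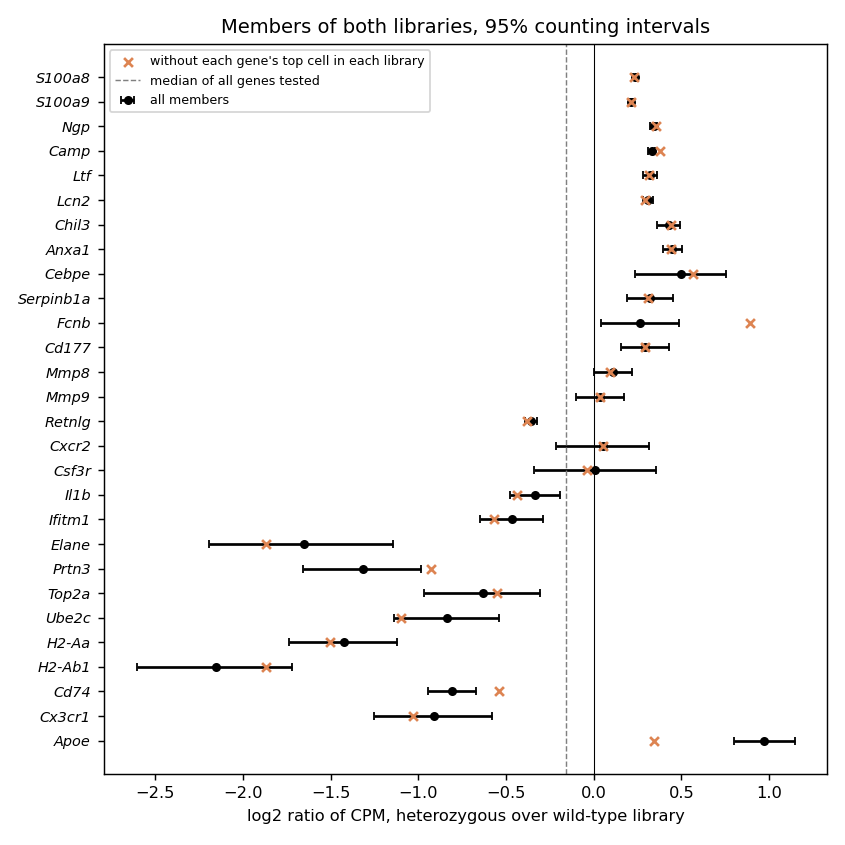
Log2 ratio of CPM, heterozygous over wild-type library (horizontal), of 28 genes in the immature neutrophils (called members), with 95% counting intervals (bars) and the value without each gene's top cell in each library (crosses), the dashed line being the median of all genes tested. Camp, Ngp, Ltf and Lcn2 sit between 0.31 and 0.34, H2-Ab1 lies at -2.15, and Apoe moves from 0.97 to 0.34 without its top cells.

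Markers of other cell types in the immature neutrophils differed by type. Monocyte genes summed to 1841 and 2212 CPM, against 2982 and 3477 CPM in cells below the S100 minimum. Ly6c2, Ccr2 and Vcan, 3 of these genes, had UMIs in 69 of 72 and 86 of 91 cells, and the top cell held 7.52% and 8.28% of them. The 15 genes of microglia and macrophages summed to 1865 and 1814 CPM, against 34132 and 20633 CPM in cells below the S100 minimum, and the rule itself capped C1q. The sums for NK and T cells were 12.9 and 16.1 CPM and for B cells 36.8 and 45.6 CPM, with 7 and 6 of 11 and 5 and 4 of 8 genes at 0. Erythroid and platelet genes summed to 73.5 and 65.0 CPM. Apoe, a macrophage lipid carrier, was at 493 and 251 CPM, and 1 heterozygous cell held 43.1% of its UMIs. The part of such cells in the differences between libraries was not tested beyond the values without top cells.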

How the data were processed

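Gene expression of single cells was measured in 2 libraries, 1 per genotype, prepared on the 10x Chromium platform (3′ chemistry, v3.1), per the labels' protocols. The authors deposited unnormalized UMI counts per gene and barcode. The authors used Cell Ranger 4.0 and mm10, per the submitters' processing notes, while the matrices name version 5.0.0, per the file headers, and this difference is unresolved. Barcodes that held 500 genes or more, had mitochondrial UMIs below 10% and were not listed in both libraries were kept, and no doublets were removed. Counts were summed per library and group of cells and expressed as CPM. Shares carry Clopper-Pearson, CPM values Poisson and ratios conditional binomial intervals at 95% (scipy 1.17.1), which cover counting error only. A count of 0 was set to 3 for a bound on a ratio. Positions are from GENCODE M21 (GRCm38), whose identifiers matched 32158 of 32285 genes.

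The immature neutrophils and the 25 gene lists were chosen with earlier results of these data known. Named genes were Cx3cr1, sex marks, genes of the rule and Lcn2, the 10 highest and 10 lowest ratios between genotypes (a mean of at least 20 CPM, interval excluding 1), the 12 highest and 12 lowest between immature and granule-low neutrophils (at least 50 CPM on average), without predicted, ribosomal, mitochondrial and sex-marker genes, and up to 5 genes of each list by level or ratio. Genes named beyond this rule were chosen after their values were seen, among them Fcnb in the bins, the genes named in dividing cells and further list members given as examples. Alternatives were other cell filters, cell cut-offs, scalings (TMM from edgeR 4.0.16), cell weights, UMI minimums and thinning depths. Leaving out top cells or dividing cells, the lymphocyte background and the granule list without rule genes were added after seeing the data. Only the ratio intervals were tested on simulated data. These were independent Poisson counts, the model that the intervals assume, without clustering of a gene's UMIs in few cells. That test therefore says nothing about spread between cells or animals.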

Additional observations from a re-analysis of the deposited data

Results flagged for a closer look

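The 3 class II genes pointed in opposite directions in the 2 libraries when immature neutrophils were set against granule-low neutrophils. The log2 ratio of H2-Ab1 was -2.12 in the heterozygous and 1.39 in the wild-type library, that of H2-Eb1 -1.65 and 2.29, and that of H2-Aa -1.83 and 1.79. The difference between libraries was not tested. One cell held 57.3% (heterozygous) and 61.1% (wild type) of the UMIs of these 3 genes among the immature neutrophils.

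Barcodes listed in both libraries were left out of the main comparisons and used only in the setting that kept them. Among them, 5 in the heterozygous library met the expression rule, above the limit of 3 that a count of 0 allows.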

How the results depend on the processing

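With C1q under 300 CPM, the share of immature neutrophils was 3.97% (heterozygous) and 3.71% (wild type), and under the other 6 cell filters and cut-offs tried the shares stayed within their counting intervals. Genes at least 1.5-fold higher and lower in the heterozygous library numbered 223 and 253 with TMM, 226 and 247 with median-of-ratios, 193 and 282 with totals without the rule genes, 265 and 838 with equal weight per cell, 283 and 1111 at a minimum of 20 UMIs and 36 and 186 at 100 UMIs, and 308 were lower without dividing cells. Genes at least 2-fold higher and lower than in granule-low neutrophils in both libraries numbered 153 and 47, 145 and 54, 151 and 53 with those 3 scalings, 168 and 265 at 20 UMIs, 60 and 110 at 100 UMIs and 55 and 106 without dividing cells. Fewer genes reach a higher minimum, and fewer UMIs remain without dividing cells. Among single genes past the fold threshold, 9 values changed sign, and Retnlg, under it between genotypes, did so with C1q under 300 CPM (0.09). Between genotypes, Slc17a9 (-0.12) and Top2a (0.29) did so with equal weight per cell, and Elane (0.29) and Prtn3 (0.79) without dividing cells. Against granule-low neutrophils, Top2a (-0.15 heterozygous, -0.51 wild type), wild-type Mki67 (-0.69) and wild-type Prtn3 (-2.19) did so without dividing cells, and heterozygous Prtn3 (-4.43) with shared barcodes kept. The cause of these changes was not tested. No paired analysis was possible because each group holds 1 library. With 72 and 91 cells, a gene under 50 UMIs was not compared, and the spread between animals is not covered by any interval.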

Other observations

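The granule-rich barcodes that also carried C1q, 84 heterozygous and 89 wild-type, outnumbered or nearly matched the 72 and 91 immature neutrophils. They were 50.3% and 35.9% of the S100-high barcodes with C1q, and belong to no comparison above.

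In wild-type S100-high barcodes with C1q, 82 of 248 had both Xist and Y-linked UMIs, against 3 of 91 immature neutrophils. In the heterozygous library, where Y-linked UMIs were nearly absent, the corresponding counts were 1 of 167 and 0 of 72. The top cell for Fcnb in the wild-type immature neutrophils held 44.9% of its UMIs, and the log2 ratio between genotypes was 0.26 with and 0.89 without the top cell of each library.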
